A study of Homo sapiens with 24 samples.

Results

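MHC class I antigen presentation is described here through 9 genes, HLA-B, HLA-C, HLA-E, B2M, TAP1, TAP2, TAPBP, NLRC5 and PSMB9, of the 58735 entries in the count files. The genes were chosen by symbol, each symbol occurs once, and all 9 passed the low-count filter in every fit. The study sequenced polyadenylated RNA in 24 libraries of 3 human cell lines of triple-negative breast cancer, a class of tumour without hormone receptors or HER2 amplification. HCC1395 had 4 groups, namely the solvent DMSO, 5 uM tazemetostat, 5 uM ipatasertib, and both together. HCC38 and HCC1937 had 2 groups each, DMSO and both inhibitors. Tazemetostat inhibits EZH2, the enzyme that methylates histone H3 at lysine 27 in silenced chromatin, and is written EZH2i below. Ipatasertib inhibits the AKT kinases and is written AKTi. Each group held 3 libraries with the letters A, B and C, so that each cell line is one genetic background and not a sample of tumours. How long the cells were treated is not clear, since the only timeline in the labels belongs to a different cell line. The labels do not name separate cultures behind A, B and C, so the p-values speak only of the spread among these libraries, which could be technical.

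MHC class I molecules show peptides from inside the cell to CD8 T cells. The proteasome cuts proteins into peptides, and PSMB9 is a catalytic subunit of the interferon-induced form, the immunoproteasome. TAP1 and TAP2 form the transporter that carries peptides into the endoplasmic reticulum, where tapasin (TAPBP) holds empty class I molecules beside it. A finished molecule is a heavy chain, here HLA-B, HLA-C or HLA-E, bound to beta-2-microglobulin (B2M). HLA-E is the heavy chain read mainly by the NKG2A receptor of natural killer (NK) cells. NLRC5 is the transactivator that works with RFX, CREB and NF-Y factors at class I promoters, and EZH2 is known for holding class I genes down in some tumours.

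Of the 9 genes, 7 lie on chromosome 6 in the MHC region (GRCh38, GENCODE 29). HLA-E is at chr6:30489467-30494205 on the plus strand, HLA-C at chr6:31268749-31272130 and HLA-B at chr6:31269491-31357188, both on the minus strand. TAP2 (chr6:32821833-32838780, minus), PSMB9 (chr6:32844136-32859585, plus) and TAP1 (chr6:32845209-32853978, minus) are neighbours, and TAPBP is at chr6:33299694-33314387 on the minus strand. B2M is at chr15:44711487-44718877 and NLRC5 at chr16:56989485-57083531, both on the plus strand. These spans cover every annotated transcript, so the spans of neighbours overlap.

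The 250 bases before the start are shown for 6 members (RefSeq, GRCh38.p14, written 5′ to 3′ along the gene's strand). They were picked because the heavy chains and B2M rose, and TAP2 and PSMB9 fell, in HCC1395 with AKTi, alone or with EZH2i. Whether these sequences bear on that was not tested. The table used matched 7 members. HLA-E and NLRC5 were not matched. Capitals mark letters searched on both strands, namely TGACG of the X2 box (bound by CREB-type factors), ATTGG of the Y box (NF-Y), a long and a short form of the interferon response element (GAAA, 2 bases of any kind, GAAA, and GAA, any base, TGAAA), and a short and a long form of the kappa B element (GGG, 2 or 3 bases of any kind, TTCC). Matches may overlap. HLA-B is at chr6:31357180-31357429 and HLA-C at chr6:31272093-31272342 (both minus), B2M at chr15:44711267-44711516 (plus), TAP1 at chr6:32853705-32853954 (minus, the first of 2 starts), TAP2 at chr6:32838740-32838989 (minus) and PSMB9 at chr6:32853942-32854191 (plus).
HLA-B: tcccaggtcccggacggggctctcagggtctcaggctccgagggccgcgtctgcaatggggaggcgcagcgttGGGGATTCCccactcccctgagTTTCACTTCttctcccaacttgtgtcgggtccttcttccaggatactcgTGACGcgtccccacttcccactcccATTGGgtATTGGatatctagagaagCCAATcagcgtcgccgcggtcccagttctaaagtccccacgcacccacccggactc
HLA-C: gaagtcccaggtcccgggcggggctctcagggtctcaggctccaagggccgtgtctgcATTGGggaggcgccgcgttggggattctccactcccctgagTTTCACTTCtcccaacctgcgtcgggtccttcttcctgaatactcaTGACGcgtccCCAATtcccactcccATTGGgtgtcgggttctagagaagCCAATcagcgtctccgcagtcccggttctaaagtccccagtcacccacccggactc
B2M: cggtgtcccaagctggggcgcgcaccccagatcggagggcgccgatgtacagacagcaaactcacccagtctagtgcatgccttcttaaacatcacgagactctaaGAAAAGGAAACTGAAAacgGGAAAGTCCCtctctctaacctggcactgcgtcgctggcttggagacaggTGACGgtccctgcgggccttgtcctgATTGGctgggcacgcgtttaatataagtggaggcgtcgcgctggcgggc
TAP1: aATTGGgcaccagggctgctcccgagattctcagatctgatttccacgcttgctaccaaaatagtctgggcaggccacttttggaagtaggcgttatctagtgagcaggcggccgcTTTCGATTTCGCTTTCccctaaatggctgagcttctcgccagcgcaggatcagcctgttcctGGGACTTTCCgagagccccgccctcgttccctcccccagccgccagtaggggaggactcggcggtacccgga
TAP2: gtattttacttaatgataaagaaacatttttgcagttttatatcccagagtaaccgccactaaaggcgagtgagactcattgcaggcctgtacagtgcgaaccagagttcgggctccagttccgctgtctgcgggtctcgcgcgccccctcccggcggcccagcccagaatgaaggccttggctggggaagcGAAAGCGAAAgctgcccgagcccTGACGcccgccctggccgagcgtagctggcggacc
PSMB9: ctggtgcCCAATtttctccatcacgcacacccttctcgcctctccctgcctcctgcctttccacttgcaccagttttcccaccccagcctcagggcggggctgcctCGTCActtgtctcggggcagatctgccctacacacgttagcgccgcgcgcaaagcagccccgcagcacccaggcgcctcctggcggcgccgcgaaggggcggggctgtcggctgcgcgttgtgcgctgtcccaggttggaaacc

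HLA-B, HLA-C and B2M each held TGACG followed by ATTGG on the gene's own strand. Counted back from the base before the start as -1, the TGACG began at -106, -105 and -75, and the next ATTGG at -81, -80 and -49. TAP1 held ATTGG at -249 without TGACG, TAP2 held TGACG at -35 without ATTGG, and PSMB9 held both on the opposite strand, at -144 and -243. The ATTGG of the TAP1 window and the CCAAT of the PSMB9 window are the same bases, since these genes are read away from each other. The TAPBP window (chr6:33314079-33314328, minus), not printed, held neither. Of 22199 windows of protein-coding genes of the same length, 24.2% held TGACG, 32.7% ATTGG and 8.67% both, on either strand. The share with both takes any order and strand, which PSMB9 also meets. TGACG followed by ATTGG on the gene's own strand was not counted over all windows. The long interferon form was found in B2M, TAP1, TAP2 and TAPBP, and in 2.71% of all windows. The short form was found in HLA-B and HLA-C, and in 1.27% of all windows, while PSMB9 held neither form. The short kappa B form was found in HLA-B and TAPBP (6.49% of all windows) and the long form in B2M, TAP1 and TAPBP (6.08%). The letters were chosen with these sequences in view, a match is not a bound site, and a window without a match shows only that these letters are not in it.

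**Figure D1:**
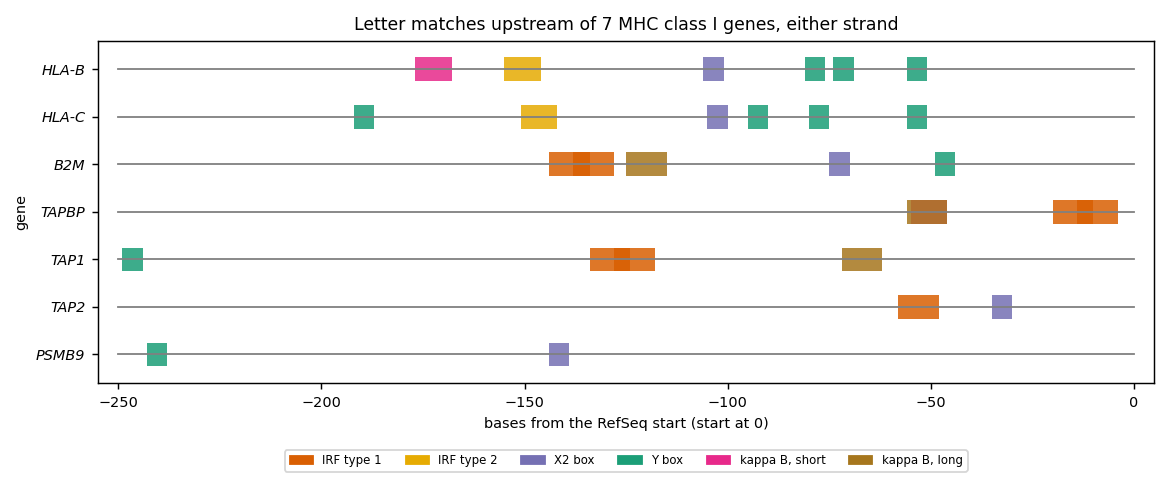
Positions of letter matches in the 250 bases before the RefSeq start of 7 genes, in bases from the start (x axis), with each colour a motif and either strand counted. HLA-B and HLA-C carry the X2 box near -106 and -105 with Y boxes after it, and B2M at -75, while the TAPBP line has neither.

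Library totals ran from 33469927 to 51815656 counts. The mitochondrial share of counts was 3.77 to 3.92% in the DMSO libraries of HCC1395 and 6.14 to 6.3% under both inhibitors. In HCC38, replicate C under both inhibitors stood apart. Mitochondrial genes took 7.77% of its counts and 4.76 and 5.19% of those of A and B, so HCC38 values are also given without it. In HCC1937 the mitochondrial share was 4.81 to 6.37% in DMSO and 6.72 to 8.54% under both inhibitors, and without mitochondrial genes the 5 calls of members there were unchanged. Of 8 breast epithelial markers, 5 averaged at least 1 CPM in the DMSO libraries of HCC1395, 6 in HCC38 and 8 in HCC1937, and EPCAM was at only 1.76 CPM in HCC1395. Of the receptors that define triple-negative disease, ESR1 averaged 20.8 CPM in the DMSO libraries of HCC1937, 2.01 in HCC38 and 0.147 in HCC1395. PGR had no counts in those of HCC1937 and averaged 0.0094 CPM in HCC38 and 0.0278 in HCC1395. ERBB2, the gene of HER2, averaged 190.5 CPM in DMSO in HCC1937, 123.5 in HCC38 and 45.2 in HCC1395. The 10 leukocyte markers summed to at most 2.01 CPM in HCC1395, and in DMSO to 9.62 to 11.8 CPM in HCC38 and 5.36 to 7.07 CPM in HCC1937. Most of that was CD14 (8.82 CPM in HCC38), while PTPRC stayed under 1 CPM in every group mean. The 3 endothelial markers summed to 35 to 38.1 CPM in the DMSO libraries of HCC1937, 2.05 to 3.24 in HCC1395 and 0.0564 to 0.0599 in HCC38.

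Levels below are counts scaled to library size (CPM, with TMM factors over all 24 libraries), and log2 changes come from the fit of each line. In these bulk libraries fewer expressing cells and less RNA per cell cannot be told apart. Per kilobase of the union of annotated exons, HLA-C was the highest member in DMSO in all 3 lines. It was at 320.3 ± 12.9 (SD, n = 3) CPM per kb in HCC1395, 191 ± 17.1 in HCC1937 and 128 ± 7.71 in HCC38. That rank rests on the exon length used, 6079 bases for B2M and 2507 for HLA-C. Their longest coding transcripts have 1705 and 1554 bases. In CPM, B2M (989, 786 and 495.5) was above HLA-C (803, 479 and 320) in HCC1395, HCC1937 and HCC38. Per kb in HCC38, HLA-C was next to HLA-B at 114 ± 10.3, a gap about as large as the spread. B2M, HLA-B, TAPBP and HLA-E followed HLA-C in HCC1395, at 163 ± 9.87, 134 ± 1.55, 75.4 ± 2.35 and 41.0 ± 0.25 CPM per kb. TAPBP and HLA-E did not differ beyond their spread in HCC38 (58.8 ± 0.919 and 57.7 ± 3.08). TAP1 and PSMB9 lay together in HCC1395, at 14.3 ± 0.524 and 13.7 ± 0.613 CPM per kb, above TAP2 at 8.43 ± 0.214. The closeness of TAP1 and PSMB9 also rests on the exon lengths used, 4805 and 3072 bases. Their longest coding transcripts have 2959 and 792. NLRC5 was lowest in each of the 8 groups, between 1.16 and 2.14 CPM per kb on average.

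TAP1 and PSMB9 had the widest range over the 3 untreated lines, set by HCC38 and HCC1937. The transporter gene TAP1 stood at 190, 183 and 192 CPM in the DMSO libraries of HCC38, against 68.1, 66.7 and 71.6 in HCC1395 and 44.4, 38.1 and 37.4 in HCC1937. Its level in HCC1937 was lower than in HCC38 by a log2 difference of -2.24 ± 0.09 (SE, adjusted p = 5.84e-19, edgeR). PSMB9 had the same order, with 64.9, 73.2 and 59.0 CPM in HCC38, 40.3, 44.0 and 42.4 in HCC1395 and 14.6, 12.1 and 10.5 in HCC1937. Between HCC1937 and HCC38 the log2 difference was -2.41 ± 0.12 (adjusted p = 2.41e-16, edgeR). No library of one line overlapped another line for either gene. HLA-C and B2M had another order, lowest in HCC38, with log2 differences of -1.33 ± 0.10 and -1.00 ± 0.08 from HCC1395 (adjusted p = 9.28e-13 and 8.68e-13, edgeR). Between those lines PSMB9 differed less than HLA-C and B2M, by 0.64 ± 0.12. Reads of HLA alleles unlike the hg38 reference may be lost. Their part in the HLA differences between lines was not tested.

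Among the members, 4 were higher and 4 lower in HCC38 than in HCC1395, where 38.2% of 20697 genes were called higher and 36.5% lower. In HCC1937 8 members were lower than in HCC1395 and none higher (35.7 and 37.3% of genes), and HLA-E, with a log2 difference of -0.07 ± 0.08, was not called. Against HCC38, HCC1937 had 2 members higher, HLA-C and B2M, and 6 lower (36.2 and 35.6% of genes). HLA-B, at a log2 difference of -0.13 ± 0.08, was not called there. The TAPBP difference between those lines, -0.16 ± 0.06, was not called without replicate A of HCC38 DMSO (adjusted p = 0.0528, edgeR) or replicate C of HCC1937 DMSO (0.0592), nor without the low-count filter (-0.13, 0.177). Medians over the 9 genes were -0.07, -0.52 and -0.56 on the log2 scale in these 3 comparisons, beside 0.02, 0.01 and 0 over all genes.

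**Figure D2:**
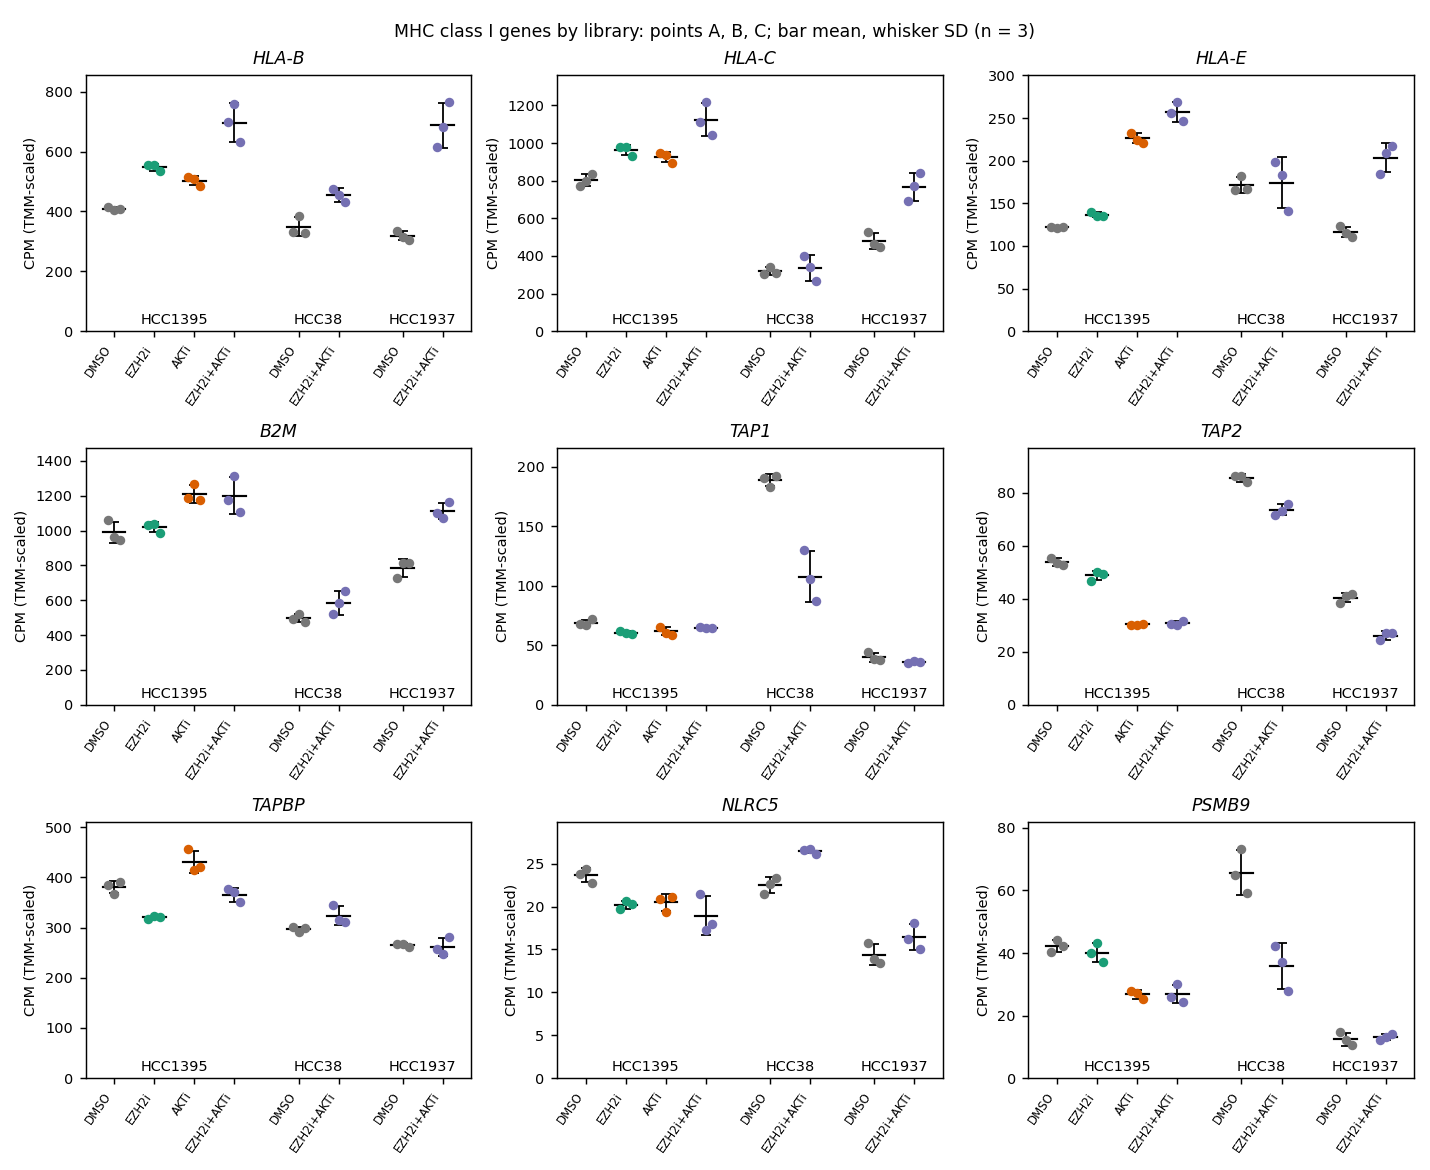
CPM of each member (y axis, from 0, own scale per panel) in the 8 groups (x axis), with a point per library, the mean as a bar and the SD as a whisker (n = 3). TAP1 and PSMB9 are highest in HCC38 in DMSO, and TAP2 falls to about 30 CPM with AKTi in HCC1395.

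Treatment moved the members in both directions. Heavy chains were higher in most treated groups, while TAP2 was lower in 4 of the 5 comparisons with DMSO and PSMB9 in 3. In HCC1395, EZH2i raised 3 members and lowered 4 (18.8% of 18074 genes were called higher and 14.9% lower). AKTi raised 5 and lowered 4 (27.1 and 22.6% of genes), and both inhibitors raised 4 and lowered 3 (32.5 and 27.4%). In HCC38 both inhibitors raised 1 member and lowered 2 (16.8 and 14.5% of 17100 genes), and in HCC1937 they raised 4 and lowered 1 (30.5 and 28.8% of 17692 genes). The 3 comparisons in HCC1395 share their DMSO libraries. The medians over the 9 genes were -0.07, 0.17, -0.07, 0.04 and 0.19 on the log2 scale in this order, beside 0.02, 0.06, 0.07, -0.01 and 0.03 over all genes.

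**Figure D3:**
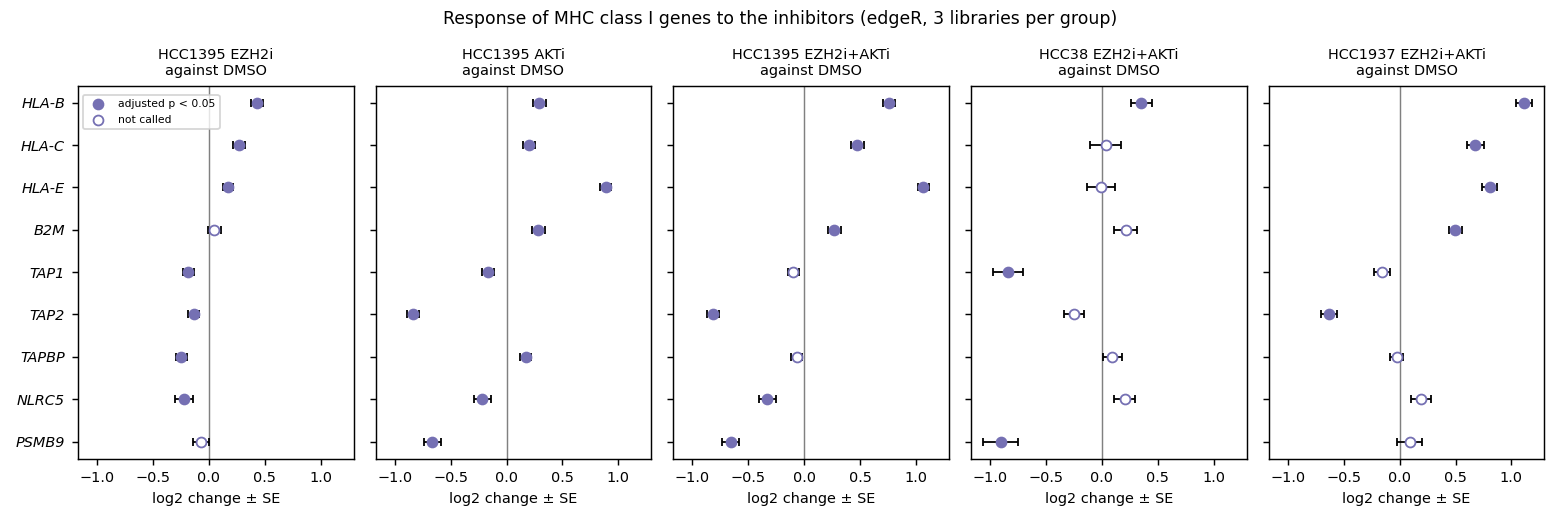
Log2 change against DMSO (x axis, with SE) of the 9 members in 5 comparisons, filled where the adjusted p was under 0.05 and open where it was not. HLA-B is filled and to the right of 0 in every panel, and TAP2 is to the left of 0 in every panel, open in HCC38.

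HLA-B, a classical heavy chain that presents peptides to CD8 T cells, rose in all 5 comparisons. Its CPM in HCC1395 was 414, 404.5 and 407 in DMSO, 554, 555 and 534 under EZH2i, 516, 507 and 486 under AKTi, and 698, 760 and 631 under both. No treated library overlapped the DMSO libraries, and the libraries with both inhibitors lay above those with either alone. The log2 changes were 0.43 ± 0.06 (SE) under EZH2i, 0.29 ± 0.06 under AKTi and 0.76 ± 0.06 under both (adjusted p = 3.67e-06, 1.44e-04 and 2.1e-10, edgeR). HCC1937 had the largest change of the 3 lines, from 334, 316 and 305 CPM to 616, 683 and 766, a log2 change of 1.11 ± 0.07 (adjusted p = 7.4e-09, edgeR). In HCC38 the libraries moved from 332, 384.5 and 328 CPM to 476, 456 and 430, again without overlap, at 0.35 ± 0.10 (adjusted p = 0.0198, edgeR). That last call was lost without replicate A of DMSO (adjusted p = 0.115), replicate C of DMSO (0.109) or replicate B under both inhibitors (0.0654), and without replicate C under both it was 0.43 (3.08e-04, edgeR).

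HLA-C, a classical heavy chain that is also read by killer-cell receptors of NK cells, rose in the comparisons of HCC1395 and HCC1937. In HCC1395 the libraries held 774, 798 and 837.5 CPM in DMSO, 981.5, 977 and 931 under EZH2i, 949.6, 935 and 895 under AKTi, and 1112, 1218 and 1042 under both. The groups did not overlap with DMSO, and the log2 changes were 0.27 ± 0.06, 0.20 ± 0.06 and 0.48 ± 0.06 (adjusted p = 6.95e-04, 0.00461 and 2.16e-07, edgeR). The AKTi call was lost without replicate A of EZH2i (adjusted p = 0.0779, edgeR), and in the joint fit of all lines the EZH2i and AKTi calls were lost (0.0502 and 0.0972). HCC1937 moved from 528, 462.5 and 447 CPM to 691, 772 and 839.5, a log2 change of 0.68 ± 0.08 (adjusted p = 4.51e-06, edgeR). In HCC38 the treated libraries, at 401, 339 and 265 CPM, spread over and beyond the DMSO range of 306, 342 and 312. The log2 change was 0.04 ± 0.14 (adjusted p = 0.868, edgeR) with all libraries and 0.22 ± 0.09 (0.0491) without replicate C under both inhibitors, the lowest of the 3.

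HLA-E had its largest changes where AKTi was given. The HCC1395 libraries were at 122, 121 and 122 CPM in DMSO, 140, 135 and 135 under EZH2i, 232.5, 225 and 221 under AKTi, and 256, 269 and 246 under both. AKTi alone gave a log2 change of 0.89 ± 0.05 and both 1.07 ± 0.05 (adjusted p = 2.59e-12 and 7.24e-14, edgeR), against 0.17 ± 0.05 for EZH2i (0.00621). The EZH2i call was lost without replicate A of EZH2i (0.11, adjusted p = 0.136, edgeR), without the low-count filter (0.0651) and in the joint fit (0.162). In HCC1937 the level went from 123, 115 and 111 CPM to 185, 209.5 and 217, at 0.81 ± 0.07 (adjusted p = 8.36e-08, edgeR). HCC38 libraries overlapped, at 166, 182 and 167 CPM in DMSO and 198, 183 and 141 under both, with a log2 change of -0.01 ± 0.13 (adjusted p = 0.966) and of 0.16 ± 0.08 (0.116, edgeR) without replicate C.

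B2M, the light chain that every class I heavy chain needs to reach the surface, was higher with AKTi and not called with EZH2i alone. In HCC1395 it was at 1058, 962 and 948 CPM in DMSO, 1033, 1038 and 988 under EZH2i, 1188, 1269 and 1173 under AKTi, and 1173, 1316 and 1109 under both. EZH2i libraries lay within the DMSO range, and the AKTi and combined libraries above it. The log2 changes were 0.05 ± 0.06, 0.29 ± 0.06 and 0.27 ± 0.06 (adjusted p = 0.576, 4.54e-04 and 5.78e-04, edgeR). HCC1937 libraries moved from 728.5, 813 and 816 to 1101, 1073 and 1166 CPM, at 0.50 ± 0.06 (adjusted p = 4.8e-06, edgeR). HCC38 had 493, 519.6 and 474 CPM in DMSO and 518, 586 and 655 under both, which overlapped, at 0.21 ± 0.10 (adjusted p = 0.143, edgeR). Without replicate A under both inhibitors, the lowest of the treated libraries, it was 0.31 ± 0.09 (adjusted p = 0.0176, edgeR), without replicate C 0.16 ± 0.08 (0.113), and in the joint fit 0.24 ± 0.08 (0.0114).

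The transporter genes did not follow the heavy chains. TAP2 in HCC1395 was at 55.4, 53.4 and 52.7 CPM in DMSO, 46.8, 50.3 and 49.3 under EZH2i, 30.2, 30.1 and 30.6 under AKTi, and 30.7, 30.3 and 31.6 under both. The libraries given AKTi, alone or with EZH2i, lay well below all others. Log2 changes were -0.84 ± 0.05 under AKTi and -0.81 ± 0.05 under both (adjusted p = 5.67e-11 and 3.75e-11, edgeR). The EZH2i change of -0.14 ± 0.05 (adjusted p = 0.0484, edgeR) was at the threshold and was called only while all libraries of DMSO, EZH2i and AKTi and replicate A under both were kept (adjusted p up to 0.142 without one of them). It was also lost without the low-count filter (0.0506), with the stricter filter (0.0654) and in the joint fit (0.0996). In HCC1937 TAP2 fell from 38.4, 41.0 and 41.8 CPM to 24.2, 27.2 and 26.9, by 0.63 ± 0.07 on the log2 scale (adjusted p = 2.2e-06, edgeR). HCC38 went from 86.5, 86.2 and 84.0 CPM to 71.8, 73.3 and 75.8 without overlap, at -0.25 ± 0.09 (adjusted p = 0.0511, edgeR). Without replicate C under both inhibitors that change was -0.23 ± 0.08 (0.0221), and the joint fit gave -0.22 ± 0.06 (0.00517).

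TAP1, the other subunit of the transporter, had its clear change in HCC38. There the libraries fell from 190, 183 and 192 CPM to 129.5, 106 and 86.8, a log2 change of -0.84 ± 0.14 (adjusted p = 0.00122, edgeR), and -0.67 ± 0.09 (4.06e-06) without replicate C, the lowest. The treated libraries of HCC38 still lay above every library of the other 2 lines. HCC1395 changes were small, from 68.1, 66.7 and 71.6 CPM in DMSO to 61.5, 60.5 and 59.3 under EZH2i, 65.2, 60.5 and 58.8 under AKTi, and 65.2, 64.8 and 64.3 under both. Each treated group lay below the DMSO libraries, with log2 changes of -0.18 ± 0.05, -0.17 ± 0.05 and -0.10 ± 0.05 (adjusted p = 0.00937, 0.0106 and 0.116, edgeR). Without replicate C of DMSO, the EZH2i and AKTi calls were lost (adjusted p = 0.0507 and 0.0571, edgeR), the AKTi call also without replicate C of AKTi (0.0683), and the joint fit held neither (0.14 and 0.166). The combined change was called with RLE scaling (-0.14, adjusted p = 0.0315), with DESeq2 (0.0285), without mitochondrial genes (0.0343) and without replicate A of EZH2i (0.0415). In HCC1937 the values were 44.4, 38.1 and 37.4 CPM in DMSO and 35.0, 36.9 and 35.8 under both, at -0.16 ± 0.07 (adjusted p = 0.0799, edgeR). That change was called without replicate C of DMSO (-0.21, adjusted p = 0.0496) and without the low-count filter (0.0394).

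TAPBP, which encodes tapasin, moved in opposite directions under the single inhibitors. In HCC1395 it was at 384, 368 and 391 CPM in DMSO, 317, 323 and 320.5 under EZH2i, 456, 414.5 and 421 under AKTi, and 376, 371 and 350 under both. EZH2i libraries lay below DMSO and AKTi libraries above it, while those with both overlapped it. Log2 changes were -0.25 ± 0.05, 0.17 ± 0.05 and -0.07 ± 0.05 (adjusted p = 4.34e-04, 0.00579 and 0.236, edgeR). The AKTi call was lost without replicate A of AKTi (adjusted p = 0.0551, edgeR) or replicate A of EZH2i (0.137). TAPBP was not called in HCC38, at 301, 292 and 299 CPM in DMSO and 345, 315 and 311.5 under both (0.09 ± 0.09, adjusted p = 0.445, and 0.16 ± 0.08, 0.111, edgeR, without replicate C). Nor was it in HCC1937, at 267.5, 267.6 and 261 CPM and 257, 247 and 281 (-0.02 ± 0.06, adjusted p = 0.744, edgeR).

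NLRC5, the transactivator of the class I genes, did not rise in any comparison of HCC1395, where HLA-B and HLA-C rose. Its libraries held 23.8, 24.4 and 22.7 CPM in DMSO (818 to 886 counts), 19.7, 20.6 and 20.3 under EZH2i, 20.9, 19.4 and 21.1 under AKTi, and 21.5, 17.3 and 17.9 under both. All treated libraries lay below DMSO, at log2 changes of -0.22 ± 0.08, -0.22 ± 0.08 and -0.33 ± 0.08 (adjusted p = 0.0305, 0.0263 and 0.00101, edgeR). The EZH2i call was lost without replicate A or B of DMSO or replicate B or C of EZH2i (adjusted p up to 0.103), and the AKTi call without replicate A or B of DMSO or replicate B of AKTi (up to 0.112). Both were lost in the joint fit (0.0509 and 0.0537). HCC38 went from 21.5, 22.6 and 23.4 CPM to 26.5, 26.7 and 26.2 without overlap, at 0.21 ± 0.10 (adjusted p = 0.126, edgeR), which was called without replicate C under both (0.25, 0.0301) and in the joint fit (0.24, 0.0285). HCC1937 had 15.8, 13.9 and 13.5 CPM in DMSO and 16.2, 18.1 and 15.01 under both, at 0.19 ± 0.09 (adjusted p = 0.0903, edgeR). It was called without replicate A of DMSO (0.25, adjusted p = 0.0288) and with the stricter filter (0.23, 0.0461).

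PSMB9 encodes the immunoproteasome subunit that takes the place of PSMB6. It fell with AKTi in HCC1395 and with both inhibitors in HCC1395 and HCC38, and did not pass the test in HCC1937. The HCC1395 libraries held 40.3, 44.0 and 42.4 CPM in DMSO, 40.0, 43.3 and 37.2 under EZH2i, 27.8, 27.3 and 25.2 under AKTi, and 26.0, 30.1 and 24.5 under both. The AKTi and combined libraries lay below all others, at log2 changes of -0.66 ± 0.08 and -0.66 ± 0.08 (adjusted p = 2.72e-07 and 1.67e-07, edgeR), while EZH2i alone gave -0.07 ± 0.07 (0.526). HCC38 fell from 64.9, 73.2 and 59.0 CPM to 42.4, 37.0 and 27.9, at -0.91 ± 0.15 (adjusted p = 0.00159, edgeR), and -0.72 ± 0.10 (5.52e-06) without replicate C. HCC1937 libraries overlapped, at 14.6, 12.1 and 10.5 CPM and 12.2, 13.3 and 14.1, with a change of 0.09 ± 0.11 (adjusted p = 0.501, edgeR). Within each library, PSMB9 per kb was set against PSMB6 per kb, a ratio chosen after the values were seen. In HCC1395 this ratio was 0.132 ± 0.0026 (SD, n = 3) in DMSO, 0.127 ± 0.0099 with EZH2i, 0.137 ± 0.0031 with AKTi and 0.133 ± 0.0076 with both, and each treated group overlapped DMSO. HCC38 had a ratio of 0.225 ± 0.014 in DMSO and of 0.194 ± 0.011 with both inhibitors, where A and B were at 0.199 and 0.202. HCC1937 had 0.0327 ± 0.0026 and 0.0425 ± 0.0038.

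Adding the second inhibitor in HCC1395 separated the members. Against EZH2i alone, both inhibitors gave 5 members higher, namely the heavy chains, B2M and TAPBP, and 2 lower, TAP2 and PSMB9 (23.9 and 25.1% of genes). Against AKTi alone, HLA-B, HLA-C and HLA-E were higher and TAPBP lower (17 and 18.6% of genes), with log2 changes of 0.47 ± 0.06, 0.28 ± 0.06, 0.18 ± 0.05 and -0.24 ± 0.05. TAP2 and PSMB9, at 0.02 ± 0.05 and 0.00 ± 0.08 there, were not called. In the joint fit the HLA-C call against EZH2i (0.22, adjusted p = 0.0736, edgeR) and the HLA-E call against AKTi (0.18, 0.106) were lost. NLRC5 was called in both of these comparisons without replicate A under both inhibitors (-0.22, adjusted p = 0.0225, and -0.23, 0.0261, edgeR). The interaction term, the combined change less the sum of the single changes, was called for 0 of the 9 genes by edgeR, and for 1.58% of all genes. Its unadjusted p was 0.00239 for TAP1 and 0.0484 for TAP2 (edgeR), where TAP2 had 0.16 ± 0.08 (adjusted p = 0.372). The share of all genes at an unadjusted p under 0.05 is not given here. TAP1 had 0.25 ± 0.07 (adjusted p = 0.0944, edgeR), and was called with RLE scaling (0.30, 0.0483), by DESeq2 (0.0149) and without replicate A of EZH2i (0.0445) or replicate B (0.00681) or C (0.033) under both. The heavy chain terms were 0.04 ± 0.08 for HLA-B, 0.01 ± 0.08 for HLA-C and 0.01 ± 0.06 for HLA-E.

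The response to both inhibitors differed between lines for most members, by the term for the difference in the joint fit. HCC38 against HCC1395 had 4 members lower and 2 higher (15.6 and 17.4% of 20697 genes). The term for HLA-E was -1.05 ± 0.12 and that for TAP1 -0.72 ± 0.13 (adjusted p = 3.95e-08 and 4.4e-05, edgeR), and that for TAP2 0.59 ± 0.09 (4.26e-06). HCC1937 against HCC1395 had 3 members higher, HLA-B, NLRC5 and PSMB9, and none lower (11.3 and 12% of genes). Its term for PSMB9 was 0.74 ± 0.17 (adjusted p = 0.00181, edgeR). HLA-E, at -0.27 (adjusted p = 0.107, edgeR), was called lower there without replicate A or C under both inhibitors in HCC38 (0.0499 and 0.0127). TAP2 was called higher with the stricter filter (0.23, adjusted p = 0.0402), and B2M without replicate B under both in HCC1395 (0.29, 0.0428). HCC1937 against HCC38 had 5 higher and 1 lower (14.3 and 17.7% of genes), with 0.97 ± 0.17 for PSMB9 and 0.79 ± 0.12 for HLA-E (adjusted p = 7.26e-05 and 5.88e-06, edgeR). These 3 terms share libraries by pairs, since each line enters 2 of them. All libraries share the joint fit's spread. Replicate C under both inhibitors in HCC38 also enters the first and the last term directly, and without it those for HLA-E were -0.92 ± 0.09 and 0.65 ± 0.09. TAPBP was then also called in the first (0.21 ± 0.08, adjusted p = 0.0445, edgeR) and B2M in the last (0.34 ± 0.10, 0.00631). With all libraries these were not called (adjusted p = 0.0978 and 0.0632). The stricter filter called both (0.0467 and 0.0313), and RLE scaling (0.0477), DESeq2 (0.0437) and the fits without replicate C of EZH2i (0.0405) or replicate B under both (0.0471) in HCC1395 called B2M.

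Markers of other cell types moved with treatment in HCC38 and HCC1937. Leukocyte markers summed to 4.36 to 6.26 CPM under both inhibitors in HCC38 against 9.62 to 11.8 in DMSO, where TAP1 and PSMB9 fell. CD14 carried this, at 8.82 and 3.07 CPM, and PTPRC was at 0.0194 and 0.182 CPM, CD3E at 0.0295 and 0.047. In HCC1937 that sum was 3.77 to 4.45 CPM under both, and the endothelial sum was 63.7 to 68.6 CPM, beside 35 to 38.1 in DMSO, with the rise of the heavy chains. The part of these markers in the results was not tested.

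Per kilobase of exon and summed within a library, HLA-B, HLA-C and HLA-E were set against TAP1 and TAP2, a ratio also chosen after the values were seen. In HCC1395 it was 21.8 ± 0.49 (SD, n = 3) in DMSO, 30.1 ± 0.65 with EZH2i, 34.8 ± 0.66 with AKTi and 41.7 ± 3.4 with both, with no overlap between groups. HCC38 went from 5.7 ± 0.51 to 10 ± 0.24, with treated libraries at 9.83 to 10.3, so replicate C did not stand apart in this ratio. HCC1937 went from 22.8 ± 0.85 to 51.9 ± 4.1. The heavy chain sum went from 335 ± 24 to 600 ± 60 CPM per kb in HCC1937 and the TAP sum from 14.6 ± 0.52 to 11.5 ± 0.43. In HCC38 the heavy chain sum was 286.6 to 324 in DMSO and 383, 346.5 and 294 in replicates A, B and C under both, so A and B lay above DMSO and C within it. The TAP sum there went from 52.6 ± 0.93 to 33.9 ± 4.1, and averaged 35.8 over A and B. The balance of TAP1 to TAP2 per kb moved in opposite directions. It was 1.7 ± 0.087 in DMSO, 1.65 ± 0.087 with EZH2i, 2.7 ± 0.16 with AKTi and 2.8 ± 0.076 with both in HCC1395, and 1.32 ± 0.19 and 1.83 ± 0.078 in HCC1937. HCC38 had 2.93 ± 0.12 in DMSO and 1.95 ± 0.44 with both, at 2.4, 1.92 and 1.52 in A, B and C. The 9 genes took 0.282% ± 0.0025 of all counts in HCC1395 DMSO and 0.373% ± 0.02 with both. In HCC38 they took 0.199% ± 0.0064 and 0.22% ± 0.013, and in HCC1937 0.209% ± 0.0026 and 0.319% ± 0.014.

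**Figure D4:**
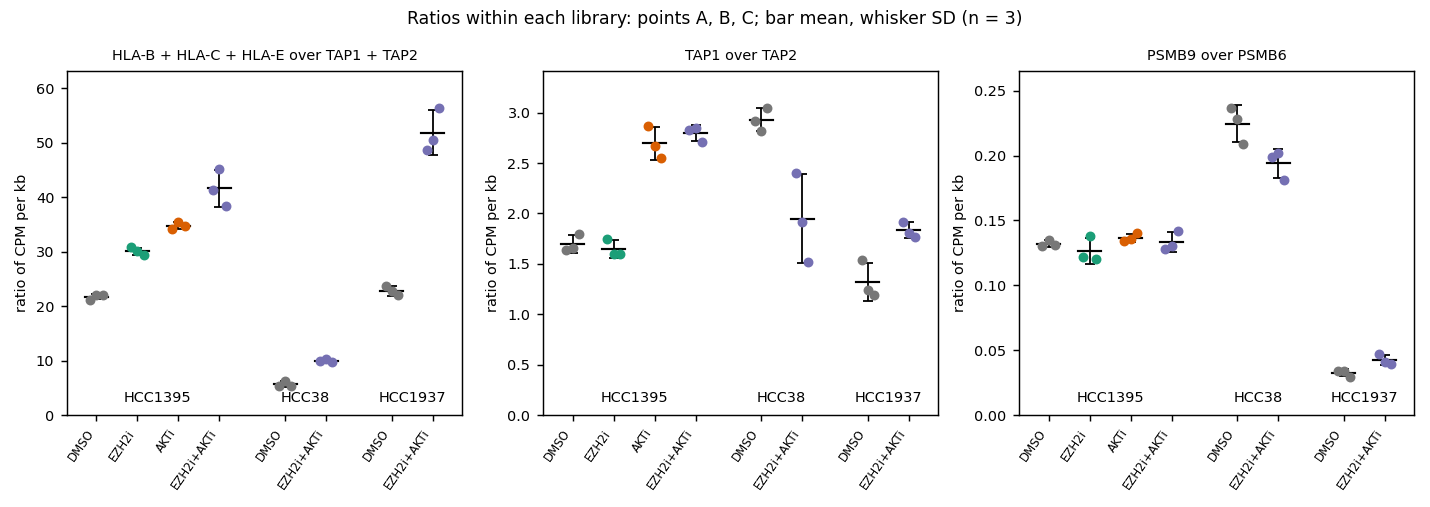
Ratios of CPM per kb within each library (y axes, from 0) in the 8 groups (x axes), with a point per library, the mean as a bar and the SD as a whisker (n = 3). The heavy chain to TAP ratio is higher in every treated library than in DMSO of its line, the TAP1 to TAP2 ratio is lower under both inhibitors in HCC38 and higher in the other 2 lines, and the PSMB9 to PSMB6 ratio stays near 0.13 in HCC1395.

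Genes around the pathway were read from lists of related genes. The shares of all genes called higher and lower, to be set beside every list, were 18.8 and 14.9% for EZH2i, 27.1 and 22.6% for AKTi and 32.5 and 27.4% for both in HCC1395, 16.8 and 14.5% in HCC38, and 30.5 and 28.8% in HCC1937. Among 6 other class I heavy chains and relatives, 5 were tested in HCC1395, and 4 rose and none fell under EZH2i, with 3 up and 1 down under AKTi and under both. FCGRT, the neonatal Fc receptor, which also pairs with B2M, rose by 0.77 ± 0.09, 1.18 ± 0.09 and 1.73 ± 0.09 on the log2 scale, and in HCC1937 by 1.70 ± 0.13. HLA-F, a non-classical heavy chain, rose by 0.70 ± 0.10 under EZH2i, 0.40 ± 0.10 under AKTi, 1.01 ± 0.10 under both and 0.95 ± 0.09 in HCC1937. In HCC38, of 4 tested, HFE, a regulator of iron uptake, fell by 0.39 ± 0.12, and HLA-F had -0.27 ± 0.18 (adjusted p = 0.29, edgeR). Without replicate C, 1 was higher and 1 lower there.

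Of 9 peptide trimming and loading genes, 5 fell under EZH2i with none higher, 5 fell and 1 rose under AKTi, and 8 fell under both in HCC1395. In HCC38 3 fell and in HCC1937 6, with none higher in either. Their median log2 changes were -0.14, -0.19, -0.39, -0.28 and -0.35 in this order, beside 0.02, 0.06, 0.07, -0.01 and 0.03 over all genes. CALR, the chaperone calreticulin of the loading complex, fell by 0.74 ± 0.05 under AKTi, 0.90 ± 0.05 under both and 0.78 ± 0.11 in HCC38. UGGT1, which checks the folding of glycoproteins, fell by 0.94 ± 0.09 under both in HCC1395 and 0.71 ± 0.06 in HCC1937. CANX, the chaperone calnexin, fell by 0.66 ± 0.07 and PDIA3, the disulfide isomerase of the complex, by 0.51 ± 0.07 in HCC1937.

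Of the 5 other genes of the immunoproteasome and its activator, 1 fell with EZH2i, 2 with AKTi and 2 with both inhibitors in HCC1395, and none rose. With AKTi and with both, the genes that fell were PSME2 and POMP. The other catalytic subunits, PSMB8 and PSMB10, were not called there. They had -0.075 ± 0.071 and 0.237 ± 0.106 with AKTi, and 0.066 ± 0.07 and 0.04 ± 0.106 with both. In HCC38 4 fell, PSMB8 (-0.42 ± 0.12) and PSMB10 (-0.91 ± 0.23) among them, and in HCC1937 1 rose and 2 fell. PSME2, a subunit of the activator PA28, fell by 0.83 ± 0.06 under AKTi, 0.77 ± 0.06 under both, 0.74 ± 0.13 in HCC38 and 0.44 ± 0.08 in HCC1937. PSMB8, an immunoproteasome subunit, rose by 0.40 ± 0.07 in HCC1937. Of 4 standard counterparts (PSMB5, PSMB6, PSMB7 and the nuclear activator PSME3), 1, 4 and 4 fell in the HCC1395 comparisons, 4 in HCC38 and 2 in HCC1937, and none rose. PSMB6 fell by 0.71 ± 0.08 under AKTi, by 0.67 ± 0.08 under both and by 0.70 ± 0.13 in HCC38. It had -0.28 ± 0.12 in HCC1937 (adjusted p = 0.0839, edgeR).

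Among 15 transcription factors that act on class I promoters, 2 rose and 4 fell under EZH2i, 5 rose and none fell under AKTi, and 5 rose and 4 fell under both in HCC1395. The shares higher in these 3 comparisons were near those of all genes. In HCC38 2 rose and 1 fell (3 and 2 without replicate C), and in HCC1937 3 rose and 4 fell. STAT2, which carries type I interferon signals, rose by 1.32 ± 0.07 under AKTi, 1.32 ± 0.07 under both, 0.30 ± 0.10 in HCC38 and 0.56 ± 0.07 in HCC1937. NFKB1, a kappa B factor, fell by 0.40 ± 0.06 under EZH2i and 0.27 ± 0.06 under both in HCC1395, and by 0.56 ± 0.06 in HCC1937. RFXANK, a subunit of RFX, fell by 0.81 ± 0.17 in HCC38.

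Of 16 interferon ligands, receptors and kinases, 10 were tested in HCC1395 and HCC1937 and 9 in HCC38. EZH2i raised 1 and lowered 3, AKTi raised 4 and lowered none, and both raised 3 and lowered 3 in HCC1395. In HCC38 3 rose and none fell, and in HCC1937 2 rose and 2 fell. IFNGR2, a chain of the interferon-gamma receptor, rose by 0.66 ± 0.06 under AKTi, 0.69 ± 0.06 under both, 0.37 ± 0.09 in HCC38 and 0.52 ± 0.07 in HCC1937. IFNGR1, the other chain, rose by 0.29 ± 0.05 under AKTi. It fell by 0.28 ± 0.05 under EZH2i, by 0.13 ± 0.05 under both in HCC1395 and by 0.46 ± 0.07 in HCC1937.

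Several of these list counts rested on single libraries. With each library of HCC38 left out in turn, the number called there ran from 0 to 2 for class I relatives, 1 to 4 for trimming and loading, 1 to 5 for the immunoproteasome list, 2 to 4 for its standard counterparts, 1 to 5 for transcription factors and 0 to 5 for interferon genes. Of these, 2, 4, 5, 4, 5 and 4 were called without replicate C under both inhibitors. In that fit CALR was at -0.63 ± 0.08, PSME2 at -0.57 ± 0.09, PSMB6 at -0.55 ± 0.09 and RFXANK at -0.58 ± 0.10 on the log2 scale. STAT2 was at 0.38 ± 0.08, IFNGR2 at 0.39 ± 0.08, HFE at -0.41 ± 0.12 and HLA-F at -0.02 ± 0.09, and only HLA-F of these 8 was not called. For EZH2i in HCC1395, 3 trimming and loading genes were called without replicate B of DMSO or replicate B or C of EZH2i, and 3 transcription factors without replicate B or C of EZH2i. The 1 call of the immunoproteasome list for EZH2i, PSMB10 (-0.36 ± 0.11), was lost without replicate C of DMSO. The joint fit called 3, 3 and 0 genes of these 3 lists, and 4925 of all genes against 6087.

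Genes whose level over the 8 groups was most like that of a member were read by Pearson's r of mean log2 CPM, over 15162 protein-coding genes, as a description. The 8 points share 3 lines, so differences between lines weigh on every r. HLA-B was closest to AASS (0.976), SMPDL3A (0.97) and SEMA6D (0.965), and HLA-E to UBXN6 (0.989). TAP1 was closest to SCNM1 (0.996) and OTUB1 (0.991), TAP2 to TIMM21 (0.991) and PAK1IP1 (0.989), and PSMB9 to ENSA (0.987). HLA-C was closest to INSL3 (0.994), B2M to SLC47A2 (0.996), TAPBP to PPFIBP1 (0.993) and NLRC5 to RGS4 (0.973). Between members, HLA-C and B2M had an r of 0.96, TAP1 and PSMB9 of 0.87, TAP1 and TAP2 of 0.83, and B2M and TAP2 of -0.88. HLA-B and NLRC5 had -0.09.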

How the data were processed

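RNA was measured in 24 libraries. Per the submitters' processing notes the authors used fastp, HISAT2 2.0.5 and DESeq2 with hg38. Not given in the sources used here are the read counter, the annotation release and whether counting used strand. The deposited files hold raw counts per gene symbol, which the authors had not normalised. Their normalised tables (24 columns) were not used here. The alleles of each line were not analysed here, and HLA reads were counted by gene only.

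Groups came from the labels. Genes passing filterByExpr (minimum count 10) went into edgeR 4.0.16 (R 4.3.3, limma 3.58.1) and its quasi-likelihood test (two-sided, TMM scaling, robust dispersions), in 1 fit per line and 1 joint fit for differences between lines. A gene was called at a Benjamini-Hochberg adjusted p under 0.05, over all genes of the fit. The workflow was tested on simulated data. CPM per kb uses the union of annotated exons (GENCODE 29), which takes in exons that may not be used here. Members, gene lists and motifs were chosen with earlier results of these data known. Named genes are the 9 members, up to 3 per list and comparison with the smallest p, and the 3 genes most like each member; others were chosen after their values were seen, and some genes are not reported here.

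Reads of near-identical copies and overlapping genes may be split. Shared stretches of 50 bases were counted in the longest coding transcript of each member only, not in all its exons. Of these, 35.8% were shared with another gene in TAP2, 12.1% in PSMB9, 6.71% in HLA-C, 6.09% in TAPBP, 5.13% in HLA-E, 2.54% in HLA-B, 1.07% in TAP1 and 0 in B2M and NLRC5. AL669918.1, which covers 32.3% of TAP2 exon bases on the same strand, had at most 1 count in any library. That low count does not show whether shared reads were dropped from TAP2, since the read counter is not known. TAP2 levels and the TAP1 to TAP2 ratios may be affected. AL671883.2, on the other strand of HLA-B, had at most 4. PSMB8-AS1, which overlaps TAP1 and PSMB9, had 46 to 175 counts, and PSMB8, which shares 139 exon bases with PSMB9 on the other strand, 1756 to 4376. Alternatives were RLE scaling, no filter, a stricter filter (1 CPM in 3 libraries), a replicate block, DESeq2 1.42.0, leaving out each library, only the groups compared, the joint fit and, added after seeing the data, leaving out mitochondrial genes. No pair of libraries of a group agreed within counting noise (chi-square per degree of freedom 2.56 to 88.2), so none was counted as a duplicate. The largest values, 88.2 and 45.7, set replicate C under both inhibitors in HCC38 against A and B. The same replicate was left out of lists and ratios after seeing the data.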

Additional observations from a re-analysis of the deposited data

Results flagged for a closer look

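The response to both inhibitors differed between lines in 15 cases, by the term for the difference in the joint fit of edgeR. HCC38 less HCC1395 was -0.386 for HLA-B, -0.418 for HLA-C, -1.054 for HLA-E and -0.723 for TAP1 on the log2 scale, and 0.588 for TAP2 and 0.558 for NLRC5. HCC1937 less HCC1395 was 0.342 for HLA-B, 0.516 for NLRC5 and 0.744 for PSMB9. HCC1937 less HCC38 was 0.729 for HLA-B, 0.614 for HLA-C, 0.788 for HLA-E, 0.655 for TAP1, -0.413 for TAP2 and 0.968 for PSMB9. NLRC5 was called in no single line but HCC1395, and its differences from HCC1395 carry adjusted p of 5.56e-04 and 0.00202 (edgeR). The HLA-C difference of HCC38 was not called without replicate B of HCC38 DMSO (adjusted p = 0.0603), replicate C under both in HCC38 (-0.28, 0.0532) or replicate B under both in HCC1395 (0.065). The HLA-B difference of HCC1937 from HCC1395 was not called without replicate C of HCC1937 DMSO (0.0556), replicate C under both in HCC1937 (0.26, 0.0875) or replicate C under both in HCC1395 (0.0666).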

How the results depend on the processing

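Of 2871 recomputed values of the members, 2749 kept their direction and their side of the threshold, 50 lost a call, 34 gained one and 38 changed direction, none of them a called value. The joint fit of all lines called 2 members for EZH2i against 7 and 6 in HCC38 against 3. All genes moved the same way, with 4925 called for EZH2i against 6087 and 7716 in HCC38 against 5362. For the interaction, RLE scaling and DESeq2 each called 1 member against 0, and the joint fit called 78 genes against 286. Of those 286, 95 were higher and 191 lower, against 146 and 125 with RLE scaling, 219 and 203 without a filter, and 246 and 177 by DESeq2. For EZH2i 3402 genes were higher and 2685 lower, against 3095 and 3511 with RLE scaling and 3018 and 3489 by DESeq2, and for AKTi 4892 and 4087 against 4366 and 4558 with RLE scaling. Both of these kept 3 members higher and 4 lower for EZH2i and 5 and 4 for AKTi. Direction turned near 0 for B2M in both inhibitors against AKTi (0.002 with the stricter filter and with only the groups compared), for HLA-E in HCC38 (0.001 with RLE scaling and DESeq2, 0.032 with the stricter filter, 0.019 without mitochondrial genes, 0.022 in the joint fit) and for TAPBP in HCC1937 (0.013 with the stricter filter). The replicate letters did not pair libraries, with correlations of deviations from -0.051 to 0.043 in HCC1395, -0.032 to 0.069 in HCC38 and -0.141 to -0.038 in HCC1937. With a replicate block TAP2 under EZH2i was -0.136 (adjusted p = 0.0652, edgeR) and PSMB9 in both inhibitors against AKTi -0.001, and no other call of a member changed.

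With each library left out in turn, the interaction called 0 to 1 members and 127 to 1022 genes, and HCC38 2 to 6 members and 3114 to 6715 genes. Log2 changes then spanned -0.005 to 0.096 for B2M under EZH2i, -0.058 to 0.04 for B2M and -0.057 to 0.063 for PSMB9 in both against AKTi, and in the interaction -0.023 to 0.102 for HLA-C, -0.003 to 0.108 for HLA-E, -0.112 to 0.025 for B2M and -0.016 to 0.082 for TAPBP. They spanned -0.097 to 0.219 for HLA-C and -0.096 to 0.161 for HLA-E in HCC38, and -0.096 to 0.011 for TAPBP and -0.019 to 0.215 for PSMB9 in HCC1937. Differences in response spanned -0.123 to 0.048 for B2M (HCC38 less HCC1395), -0.117 to 0.009 for TAP1 and -0.017 to 0.077 for TAPBP (HCC1937 less HCC1395), and -0.118 to 0.026 for NLRC5 (HCC1937 less HCC38). The cause of these changes was not tested. A group left with 2 libraries has fewer samples. NLRC5 and PSMB9, with 450 to 2446 counts a library, are the members of least depth.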

Other observations

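Ligands of the NKG2D receptor, through which NK cells read stressed cells, were divided. MICA fell in all 5 comparisons with DMSO, by 0.31 ± 0.06 (SE, log2 scale) with EZH2i, 0.67 ± 0.06 with AKTi and 0.83 ± 0.06 with both in HCC1395, by 0.57 ± 0.12 in HCC38 and by 0.59 ± 0.08 in HCC1937. MICB fell by 0.64 ± 0.06 under AKTi and by 0.64 ± 0.06 under both in HCC1395. ULBP1 rose by 0.39 ± 0.08 under EZH2i and 0.80 ± 0.08 under both in HCC1395, by 0.82 ± 0.21 in HCC38 and by 1.66 ± 0.14 in HCC1937. ULBP2 rose by 0.44 ± 0.08 under EZH2i and fell by 0.76 ± 0.09 under AKTi and by 0.54 ± 0.09 under both in HCC1395. It rose by 1.24 ± 0.19 in HCC38 and fell by 0.41 ± 0.10 in HCC1937. Of 8 ligands tested, 2 rose and 2 fell with EZH2i, 1 rose and 3 fell with AKTi, 1 rose and 4 fell with both in HCC1395, 2 rose and 1 fell in HCC38, and 1 rose and 4 fell in HCC1937. Without replicate C under both inhibitors the HCC38 count was the same, with MICA at -0.43 ± 0.10, ULBP1 at 0.72 ± 0.23 and ULBP2 at 1.39 ± 0.19.

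Of 6 genes that hold back interferon signalling, 0 were called under EZH2i by edgeR, 1 rose and 2 fell under AKTi, and 1 rose and 1 fell under both in HCC1395. For EZH2i, 3 had an unadjusted p under 0.05 (edgeR), a threshold at which the share of all genes is not given here. DESeq2 called 1 of the 6 for EZH2i, beside 6507 of all genes, where edgeR called 6087. In HCC38 2 fell, and in HCC1937 1 rose and 4 fell. These counts rested on single libraries. HCC1937 had 2 without replicate B under both inhibitors and 3 without replicate C of DMSO. HCC38 had 1 without any one DMSO library or replicate B under both, and 4 without replicate C under both. AKTi had 5 without replicate A of EZH2i or replicate B under both, and EZH2i up to 2. SOCS3, which blocks JAK kinases, rose by 0.45 ± 0.10 under AKTi and 0.83 ± 0.10 under both in HCC1395, and by 1.61 ± 0.10 in HCC1937. USP18, which blocks the type I receptor, fell by 0.59 ± 0.11 in HCC38 and by 0.85 ± 0.14 in HCC1937. Without replicate C under both, USP18 was at -0.47 ± 0.09 in HCC38 and SOCS3 was called, at 0.39 ± 0.13.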
